A study of Mus musculus with 12 samples.

Results

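Complex I (NADH:ubiquinone oxidoreductase) is the entry point of the respiratory chain, and the genes described here are the nuclear ones that encode its subunits. They were chosen by symbol, as protein-coding genes named Nduf followed by a, b, c, s, v or ab and a number. The assembly factor genes (Ndufaf) and symbols ending in -ps were left out. The 37 described here are the same in both deposited tables, of 32199 rows in the table of the PAD4 set and 31719 in that of the IL-33 set. Of the 37, 35 encode subunits of complex I. The other 2 carry the name without the place: Ndufa4 encodes a subunit of complex IV, and Ndufa4l2 encodes its relative, a mitochondrial protein induced by low oxygen. The pattern also met rows that are no protein-coding genes, 4 in the PAD4 table and 5 in the IL-33 table, among them Ndufb1-ps, and these were not counted.

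The samples were 12 bulk RNA-seq libraries of mouse kidney, in 4 groups of 3. PAD4 knockout mice (the labels name the gene Padi4) were set against the wild-type mice of their own set, and mice labelled Il33 knockout against those of another set. PAD4 turns arginines of histones into citrulline, a step in the release of neutrophil extracellular traps, and IL-33 is an alarmin cytokine. Every group, wild type included, went through the same contrast injury: male mice aged 8 weeks had a kidney removed and recovered for 3 weeks, and went without water for 24 h. The loop diuretic furosemide was then given, 20 min ahead of the contrast agent iodixanol, and the kidney was taken 24 h after the iodixanol. The wild type is given as C57BL/6. The strain, allele and source of the knockouts are not stated in the labels, and no group without contrast injury was analysed here. The labels place the PAD4 set in batch 1 and the IL-33 set in batch 2, so each comparison lies within a batch, while set and batch cannot be told apart.

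Complex I is shaped like an L. Its N arm takes electrons from NADH onto a flavin and a chain of iron-sulfur clusters, its Q arm hands them to ubiquinone, and its membrane arm pumps protons. The catalytic core is shared with bacteria and encoded partly in the nucleus and partly in mitochondrial DNA, and accessory subunits, all nuclear, surround it. Proximal tubule and thick ascending limb cells of the kidney are rich in mitochondria, because they drive transport of salt and solutes with ATP from respiration.

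In the promoter windows of these genes, a few short motifs of factors known to act on respiratory genes were counted as letters. RefSeq promoters (GRCm38.p6, 250 bases before to 50 after the start) were found for 33 of the 37 members. Genes were counted, and a gene with several starts counted once if any of its windows held the letters. The letters AAGATGGC, an element bound by YY1, stood in 7 of the 33 genes (21.2%), against 3.57% of 17491 protein-coding genes, both strands searched. GCATGCGC, an element of NRF1, stood in 3 (9.09%, against 3.93%), CAAGGTCA, read by estrogen-related receptors, in 1 (3.03%, against 1.56%), and CCGGAAG, the core bound by GABP and other ETS factors, in 4 (12.1%, against 12.9%). The promoters shown have these letters in capitals and were picked among the windows that hold such letters: 4 belong to members among the 6 with the largest changes in PAD4 knockout kidneys, and 2 to members whose change did not pass (Ndufs3, 0.53, and Ndufs4, 0.68). Ndufb3 and Ndufa1, also among those 6, hold none of these letters in their windows. They are those of Ndufs8 (chr19:3912725-3913024, minus strand, GABP/ETS), Ndufa8 (chr2:36049289-36049588, minus, NRF1), Ndufa6 (chr15:82354242-82354541, minus, NRF1), Ndufs7 (chr10:80249199-80249498, plus, YY1), Ndufs3 (chr2:90904672-90904971, minus, GABP/ETS on both strands) and Ndufs4 (chr13:114388045-114388344, minus, YY1), each written 5′ to 3′ on the gene's strand.
Ndufs8: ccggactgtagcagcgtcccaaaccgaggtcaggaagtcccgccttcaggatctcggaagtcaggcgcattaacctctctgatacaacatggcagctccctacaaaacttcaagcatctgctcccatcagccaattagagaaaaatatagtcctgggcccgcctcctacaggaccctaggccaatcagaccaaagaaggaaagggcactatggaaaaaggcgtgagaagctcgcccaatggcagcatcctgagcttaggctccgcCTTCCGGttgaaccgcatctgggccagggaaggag
Ndufa8: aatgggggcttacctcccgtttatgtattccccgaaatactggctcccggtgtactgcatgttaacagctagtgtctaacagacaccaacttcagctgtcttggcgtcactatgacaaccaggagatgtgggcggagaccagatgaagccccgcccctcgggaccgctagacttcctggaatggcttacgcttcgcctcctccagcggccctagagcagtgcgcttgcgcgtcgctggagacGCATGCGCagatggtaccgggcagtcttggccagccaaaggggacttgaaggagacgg
Ndufa6: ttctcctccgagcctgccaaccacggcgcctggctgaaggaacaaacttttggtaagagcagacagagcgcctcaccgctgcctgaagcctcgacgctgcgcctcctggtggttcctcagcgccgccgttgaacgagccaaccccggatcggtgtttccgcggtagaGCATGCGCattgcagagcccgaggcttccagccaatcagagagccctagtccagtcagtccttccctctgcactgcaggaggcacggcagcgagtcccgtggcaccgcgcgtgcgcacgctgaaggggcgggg
Ndufs7: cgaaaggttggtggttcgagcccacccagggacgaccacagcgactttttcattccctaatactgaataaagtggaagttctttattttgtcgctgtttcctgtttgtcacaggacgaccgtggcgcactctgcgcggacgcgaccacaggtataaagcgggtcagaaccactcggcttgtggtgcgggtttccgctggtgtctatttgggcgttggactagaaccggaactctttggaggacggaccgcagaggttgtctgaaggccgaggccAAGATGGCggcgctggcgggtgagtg
Ndufs3: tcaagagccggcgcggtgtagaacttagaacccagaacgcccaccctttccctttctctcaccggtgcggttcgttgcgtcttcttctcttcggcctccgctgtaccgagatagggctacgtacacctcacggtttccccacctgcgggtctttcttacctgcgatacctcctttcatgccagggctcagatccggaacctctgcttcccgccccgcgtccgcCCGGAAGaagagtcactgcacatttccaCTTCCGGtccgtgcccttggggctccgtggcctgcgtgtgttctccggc
Ndufs4: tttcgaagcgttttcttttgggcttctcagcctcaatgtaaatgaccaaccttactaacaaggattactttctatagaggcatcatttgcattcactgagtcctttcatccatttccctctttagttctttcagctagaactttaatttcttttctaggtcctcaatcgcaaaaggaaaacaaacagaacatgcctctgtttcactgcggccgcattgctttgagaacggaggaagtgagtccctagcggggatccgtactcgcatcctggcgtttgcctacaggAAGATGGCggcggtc

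The letters stood on both sides of the range of changes. YY1 letters were in Ndufs7, with a change of 2.40 in PAD4 knockout kidneys, and in Ndufs4, Ndufs6, Ndufa3, Ndufa9, Ndufb8 and Ndufc1, with changes between 0.50 and 1.16. NRF1 letters were in Ndufa6 and Ndufa8, both far higher in the knockout, and in Ndufa11, with a change of 0.92. These matches describe the letters of the reference and carry no statement on binding.

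Values are FPKM (fragments per kilobase of transcript, scaled to the fragments mapped), which are per length and can be set between genes. A change is the difference of knockout minus wild-type means of log2(FPKM + 1), with limma's moderated standard error (SE) and an adjusted p from limma over all genes tested in that table. A gene is called at an adjusted p under 0.05, and values of a group are in the order of libraries 1 to 3. FPKM summed to 700601 to 812981 per library in the PAD4 set and 385124 to 420279 in the IL-33 set, so levels were not tested between the sets. Padi4 stood at 0.217, 0.497 and 0.187 FPKM in PAD4 knockout libraries, against 0.704, 1.06 and 1.67 FPKM in wild type (adjusted p = 0.0147 from limma). Il33 stood at 1.14, 0.616 and 1.02 FPKM in the libraries labelled IL-33 knockout, against 1.72, 1.13 and 3.64 FPKM in wild type, which overlap, and it did not pass (adjusted p = 0.0990 from limma).

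In PAD4 knockout kidneys, 15 of the 37 genes were called higher than in wild type (40.5%) and 0 lower, where 8.89% of the 13986 genes tested were called higher and 8.79% lower. The median change over the 37 was 0.92, against 0.016 over all genes tested, and 36 of 37 changes were above 0. Every knockout library lay above every wild-type library for 23 members, against 17.2% of all genes tested, and below for 0, against 15.8%. The 37 genes summed to 3348, 1416 and 1924 FPKM in PAD4 knockout libraries, against 645, 704 and 892 FPKM in wild type. The knockout libraries were far apart among themselves, with library 1 the highest for 36 members and library 2 the lowest for 36, and in wild type library 3 was the highest for 31. The SD over a group was a median of 43.1% of the mean in the knockout and 20.6% in wild type.

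**Figure D1:**
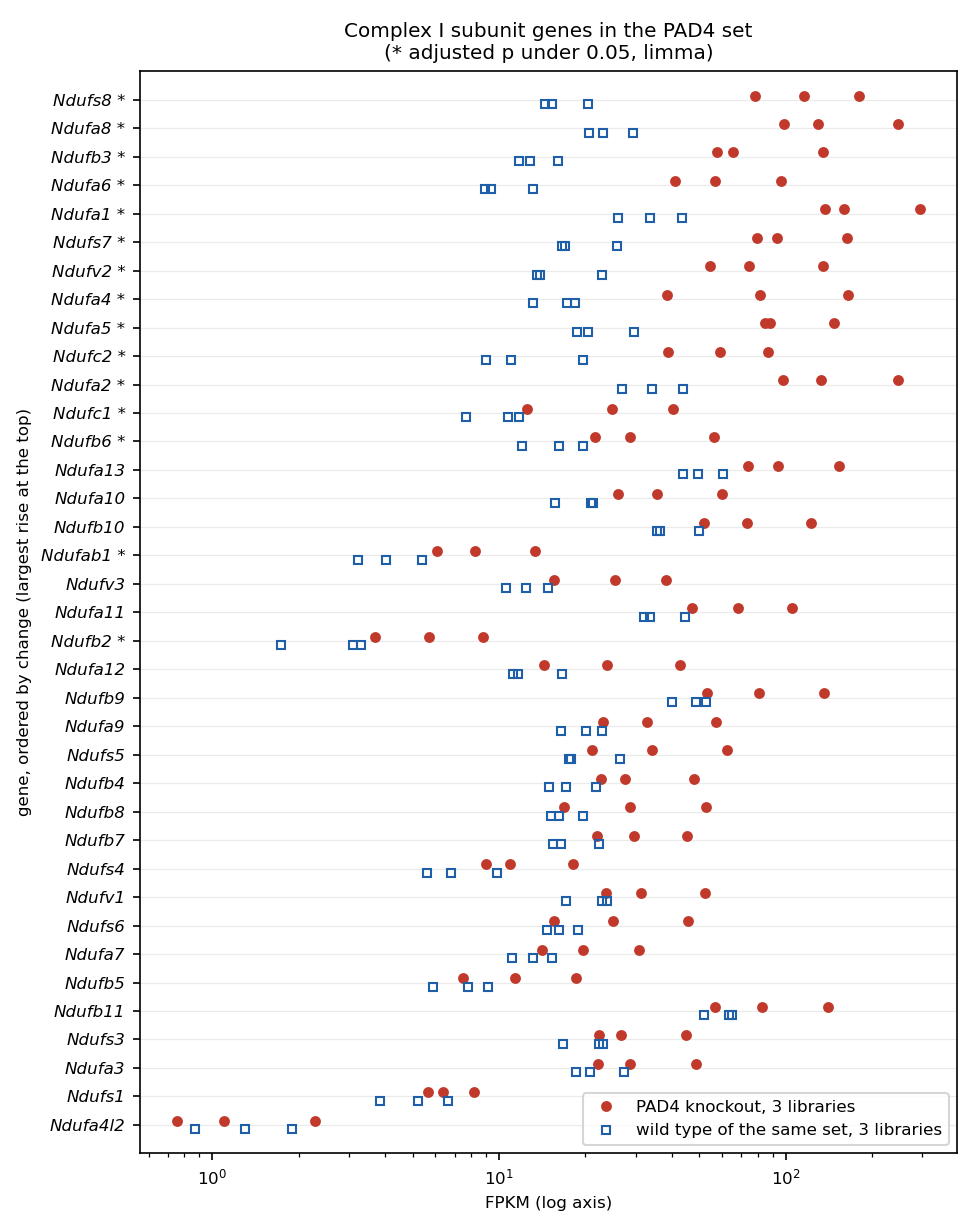
FPKM (log axis) of the 37 complex I subunit genes in the PAD4 set, as red circles for 3 PAD4 knockout libraries and blue squares for 3 wild-type libraries, ordered by change with the largest rise at the top. The 11 genes from Ndufs8 to Ndufa2 stand clear of wild type by a wide gap, and at the bottom Ndufa4l2 and Ndufs1 overlap with it.

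The members did not rise by a common factor. Ordered by change, 11 genes lay between 2.08 and 2.76, and after a step of 0.91 the others followed from Ndufc1 at 1.16 downward. The 11 were Ndufs8, Ndufa8, Ndufb3, Ndufa6, Ndufa1, Ndufs7, Ndufv2, Ndufa4, Ndufa5, Ndufc2 and Ndufa2. Their wild-type levels were close to those of the others: the median was 107 FPKM in the knockout and 16.8 FPKM in wild type for the 11, and 32.5 FPKM in the knockout and 17.5 FPKM in wild type for the other 26. The 11 came from every arm, with 3 in the N arm, 3 in the Q arm, 3 in the proximal and 1 in the distal membrane arm, and Ndufa4. This split was drawn after the values were seen, so it is a description with no test.

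In the N arm, 3 of 10 genes were called higher, with a median change of 0.78. Ndufv1, which binds NADH and the flavin, stood at 52.4, 23.5 and 31.4 FPKM in PAD4 knockout libraries, against 17.2, 23.8 and 22.9 FPKM in wild type, a change of 0.66 ± 0.33 (SE) with adjusted p = 0.187 (limma). Its partner Ndufv2, which holds an iron-sulfur cluster beside the flavin, stood at 135, 54.6 and 74.2 FPKM in the knockout, against 13.6, 13.9 and 22.8 FPKM in wild type, and rose by 2.26 ± 0.36 (SE), adjusted p = 0.000431 (limma). The groups overlapped for Ndufv1, through knockout library 2, and were apart for Ndufv2, whose proteins sit side by side in the enzyme. Ndufs1, the large subunit that carries several iron-sulfur clusters, had 8.21, 5.68 and 6.36 FPKM in the knockout, against 3.83, 5.23 and 6.63 FPKM in wild type (0.33 ± 0.26 (SE), adjusted p = 0.444 from limma). It had the smallest change of the 35 complex I genes, and its groups overlapped. Ndufa6, an accessory subunit that docks the acyl carrier protein on this arm, had 96.0, 41.1 and 56.6 FPKM in the knockout, against 8.91, 9.35 and 13.2 FPKM in wild type, and rose by 2.45 ± 0.34 (SE), adjusted p = 0.000156 (limma). Ndufa2, which has a thioredoxin-like fold, rose by 2.08, with means of 159 ± 77.6 FPKM in the knockout and 34.9 ± 8.58 FPKM in wild type (SD, n = 3 each). Every knockout library was above every wild-type library for both of these accessory genes. Ndufs4, Ndufs6, Ndufv3, Ndufa7 and Ndufa12, also of this arm, had changes between 0.61 and 0.93 that did not pass.

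In the Q arm, 3 of 5 genes were called higher, with a median change of 2.16. Ndufs8, which carries iron-sulfur clusters toward the quinone, had the largest change of all 37: 179.6, 78.2 and 116 FPKM in PAD4 knockout libraries, against 14.4, 15.3 and 20.4 FPKM in wild type. The ratio of means was 7.44, and the change was 2.76 ± 0.35 (SE) with adjusted p = 8.52e-05 (limma). Ndufs7, which holds the last cluster before ubiquinone, had 163, 79.7 and 93.6 FPKM in the knockout, against 17.1, 16.6 and 25.8 FPKM in wild type (2.40 ± 0.34 (SE), adjusted p = 0.000185 from limma). For both genes the lowest knockout library was far above the highest wild-type one. Ndufs3, the core subunit on which this arm is first built, had 45.1, 22.4 and 26.7 FPKM in the knockout, against 16.7, 23.1 and 22.3 FPKM in wild type, and did not pass (0.53 ± 0.32 (SE), adjusted p = 0.289 from limma). Its groups overlapped, with knockout library 2 below wild-type library 2. The accessory gene Ndufa5 rose by 2.16, and Ndufa9, whose protein binds a nucleotide, had a change of 0.81 that did not pass. Over 6 nuclear core genes of both arms, 3 were called (Ndufs8, Ndufs7 and Ndufv2) and 3 were not (Ndufv1, Ndufs3 and Ndufs1), with changes from 0.33 to 2.76.

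Proximal membrane arm genes, which lie next to the hinge, were called higher for 4 of 9, with a median change of 0.995. Ndufa8, a subunit on the intermembrane-space face, had 248, 98.5 and 130 FPKM in PAD4 knockout libraries, against 20.7, 23.1 and 29.3 FPKM in wild type (2.56 ± 0.36 (SE), adjusted p = 0.000166 from limma). Ndufa1, a small single-helix subunit needed for assembly, had 294, 137 and 160.3 FPKM in the knockout, against 33.7, 26.1 and 43.5 FPKM in wild type (2.43 ± 0.36 (SE), adjusted p = 0.000228 from limma). Ndufa1 had the highest mean of the 37 in the knockout, and in wild type that place was held by Ndufb11 at 60.1 ± 7.30 FPKM (SD, n = 3). Ndufc2 rose by 2.13, and Ndufc1 by 1.16. Ndufa3, a small membrane subunit, had 48.8, 22.2 and 28.7 FPKM in the knockout, against 20.8, 18.6 and 27.4 FPKM in wild type, and did not pass (0.50 ± 0.33 (SE), adjusted p = 0.333 from limma). Ndufa10, Ndufa11, Ndufa13 (GRIM-19) and Ndufs5 lay between 0.79 and 0.995 without passing. For Ndufa10, Ndufa11 and Ndufa13 the knockout libraries were nonetheless all above wild type.

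On the distal membrane arm, 4 of 11 genes were called higher, with a median change of 0.82. Ndufb3 was the member of this arm among the 11 largest, at 135, 57.5 and 65.7 FPKM in PAD4 knockout libraries, against 12.8, 11.8 and 16.1 FPKM in wild type (2.49 ± 0.35 (SE), adjusted p = 0.000159 from limma). Ndufab1, the mitochondrial acyl carrier protein, had 9.25 ± 3.77 FPKM in the knockout and 4.22 ± 1.09 FPKM in wild type (SD, n = 3 each), with adjusted p = 0.0314 from limma. Ndufb6 and Ndufb2 passed narrowly, with changes of 1.02 and 0.89 and adjusted p values of 0.04996 and 0.0337 from limma. The other 7 had changes between 0.54 (Ndufb11) and 0.93 (Ndufb10). Outside complex I, Ndufa4 moved like the largest members, at 165, 38.6 and 81.6 FPKM in the knockout, against 13.1, 17.3 and 18.4 FPKM in wild type (2.25 ± 0.41 (SE), adjusted p = 0.00115 from limma). Ndufa4l2 was low in both groups, at 0.755, 1.10 and 2.28 FPKM in the knockout, against 0.869, 1.89 and 1.31 FPKM in wild type (-0.016 ± 0.24 (SE), adjusted p = 0.976 from limma), and it was the member with a change below 0.

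These calls rest on limma's pooled spread. The smallest p that an exact permutation test allows for 3 libraries against 3 is 0.1. With no filter on level limma called 0 members and 0 of 32199 genes (22 members were at an unadjusted p under 0.05). There were 10 calls without wild-type library 1, with Ndufa4 among those lost, and 30 without PAD4 knockout library 2.

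Markers of other cells moved with this result. Of the proximal tubule markers, 10 of 11 tested were called higher in the PAD4 knockout and 0 lower (median change 1.66), and they summed to 25555, 10034 and 16029 FPKM in knockout libraries, against 5311, 5043 and 8246 FPKM in wild type. Kap took 95.7%, 95.9% and 95.5% of that sum in the knockout libraries. Library 1 was the highest and library 2 the lowest knockout library for 8 of the 12 markers, as it was for most complex I genes, but not for Slc34a1 and Miox, which were highest in library 3, nor for Slc5a2 and Slc5a12, which were highest in library 2. Of thick ascending limb markers 2 of 5 were higher and 0 lower. They summed to 562, 92.3 and 303 FPKM in the knockout, against 53.4, 169 and 104 FPKM in wild type, and these ranges overlap. Podocyte markers summed to 2.79 to 4.08 FPKM in the knockout and 3.46 to 7.59 FPKM in wild type. Markers of colon and lung, tissues other than the labelled kidney, went the other way, with 12 of 12 and 8 of 8 called lower. Colon markers summed to 112, 209 and 138 FPKM in the knockout, against 389, 581 and 532 FPKM in wild type. Lung markers summed to 61.2, 207 and 42.5 FPKM in the knockout, against 295, 842 and 496 FPKM in wild type. Smooth muscle markers were lower for 6 of 6. They summed to 49.9, 227 and 89.4 FPKM in the knockout, against 328, 333 and 716 FPKM in wild type. Neutrophil markers were lower for 4 of 7. Their sums were 11.6, 61.2 and 9.397 FPKM in the knockout, against 51.3, 171 and 51.5 FPKM in wild type. Erythroid markers were lower for 5 of 5, at 599, 693 and 926 FPKM summed in the knockout, against 2445, 2504 and 1303 FPKM in wild type. Among knockout libraries, library 2 had the highest sums of colon, lung, smooth muscle and neutrophil markers, and library 3 the highest erythroid sum. Macrophage markers were lower for 2 of 6, with sums of 23.98 to 35.9 FPKM in the knockout and 34.1 to 61.2 FPKM in wild type, and striated muscle and heart markers for 1 of 9, with sums of 19.9 to 92.7 FPKM in the knockout and 50.4 to 127 FPKM in wild type. Brown fat, a tissue rich in mitochondria, had markers at 10.8, 4.08 and 111.5 FPKM summed in the knockout, against 4.10, 9.35 and 6.96 FPKM in wild type, and knockout library 3 stood apart through Ucp1 (80.0 FPKM). Its 3 markers tested all had changes above 0 (0.79 to 1.33, median 0.92), and none was called (limma, 0 at an unadjusted p under 0.05). Without knockout library 3 there were 13 calls among the members. In bulk tissue, fewer cells of a type and less RNA per cell cannot be told apart. The source of the colon and lung markers in these kidney libraries was not tested. Nor was the part of any of these cells or tissues in the complex I values.

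**Figure D2:**
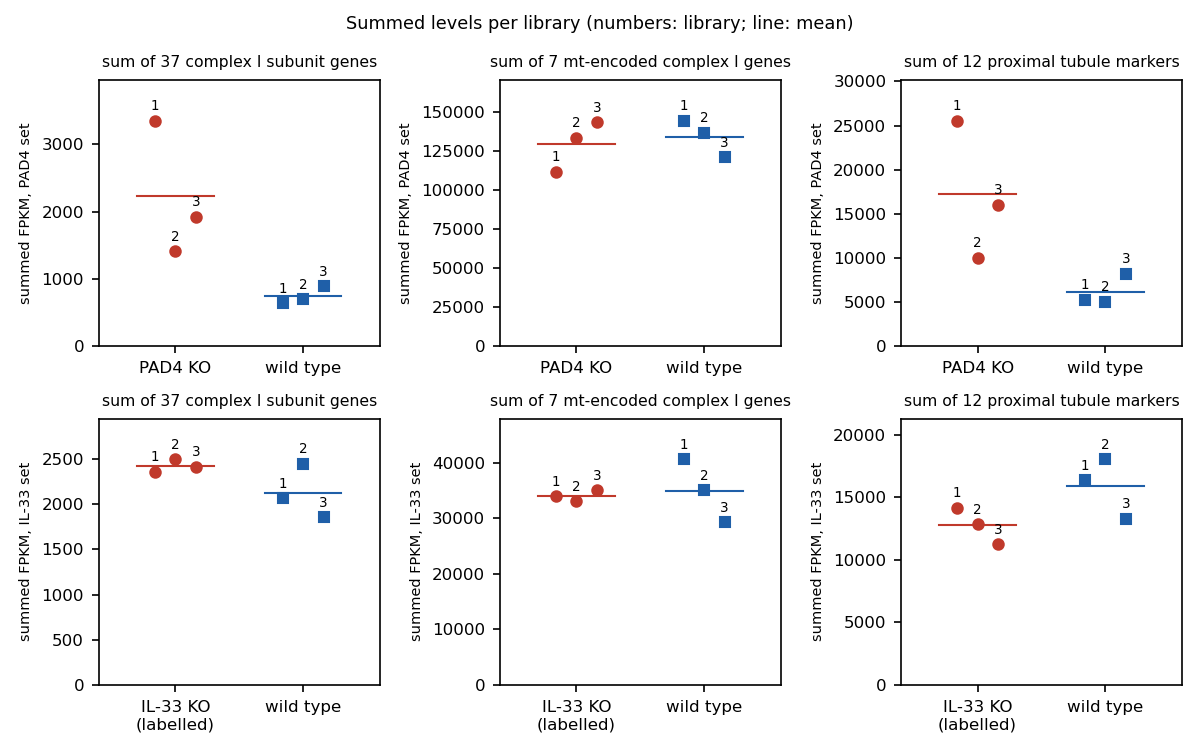
Summed FPKM per library of the 37 complex I subunit genes, the 7 complex I genes of mitochondrial DNA and 12 proximal tubule markers, for the PAD4 set (top) and the IL-33 set (bottom), with knockout libraries as red circles, wild type as blue squares, library numbers beside them and lines at the means. In the PAD4 set the nuclear sum and the tubule sum are higher in all 3 knockout libraries, and the mitochondrial sum overlaps between groups.

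The 7 subunits encoded in mitochondrial DNA form the core of the membrane arm, and in PAD4 knockout kidneys 1 of the 7 was called higher and 0 lower. That gene was mt-Nd4l (5364, 6431 and 7653 FPKM in the knockout, against 2860, 4125 and 1901 FPKM in wild type; change 1.19 ± 0.30 (SE), adjusted p = 0.00954 from limma). The median change of the 7 was 0.245, and they summed to 111958, 133679 and 143759 FPKM in the knockout, against 144689, 136997 and 121146 FPKM in wild type. Mitochondrially encoded genes as a whole took 52.0% to 59.4% of the FPKM of a knockout library and 55.5% to 60.0% of that of a wild-type one. These are shares within poly(A) libraries.

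Assembly factors, which put the arms together and do not stay in the enzyme, had a smaller median change. In the PAD4 knockout 4 of 16 tested were called higher and 0 lower, with a median change of 0.49. The 17 listed genes summed to 47.9, 70.4 and 77.1 FPKM in wild type, and log2(FPKM + 1) understates changes of low genes. Ecsit, needed for the membrane arm, stood at 24.1, 12.5 and 18.7 FPKM in the knockout, against 5.06, 8.11 and 7.93 FPKM in wild type (change 1.25 ± 0.30 (SE), adjusted p = 0.00771 from limma). Ndufaf3, which works on the Q arm, stood at 10.2, 5.96 and 8.28 FPKM in the knockout, against 2.31, 4.40 and 3.92 FPKM in wild type (change 1.01). Both genes were above wild type in every knockout library.

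Nuclear genes of complexes III to V had larger median changes. In the PAD4 knockout, 9 of 9 genes of complex III (median change 2.22), 10 of 11 of complex IV (2.31) and 10 of 15 of complex V, the ATP synthase (2.12), were called higher and 0 lower, against 14 of the 35 genes of complex I (0.92). Uqcr10 of complex III stood at 444, 185.6 and 253 FPKM in the knockout, against 32.4, 43.0 and 45.4 FPKM in wild type, and Cox5b of complex IV at 292, 115 and 154.5 FPKM in the knockout, against 23.5, 26.9 and 33.1 FPKM in wild type. All changes in complex III lay between 2.02 and 2.76, while complexes IV and V held genes with small changes that did not pass: Cox5a had 0.11, and the ATP synthase gene Atp5f1 had 0.27. Of complex II (succinate dehydrogenase) 2 of 4 were higher, Sdhb with a change of 2.56 and Sdhd with 1.42, while its flavoprotein gene Sdha had 27.0, 16.3 and 21.2 FPKM in the knockout, against 16.8, 24.9 and 26.3 FPKM in wild type. These counts describe the lists, and the difference between complexes was not tested.

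**Figure D3:**
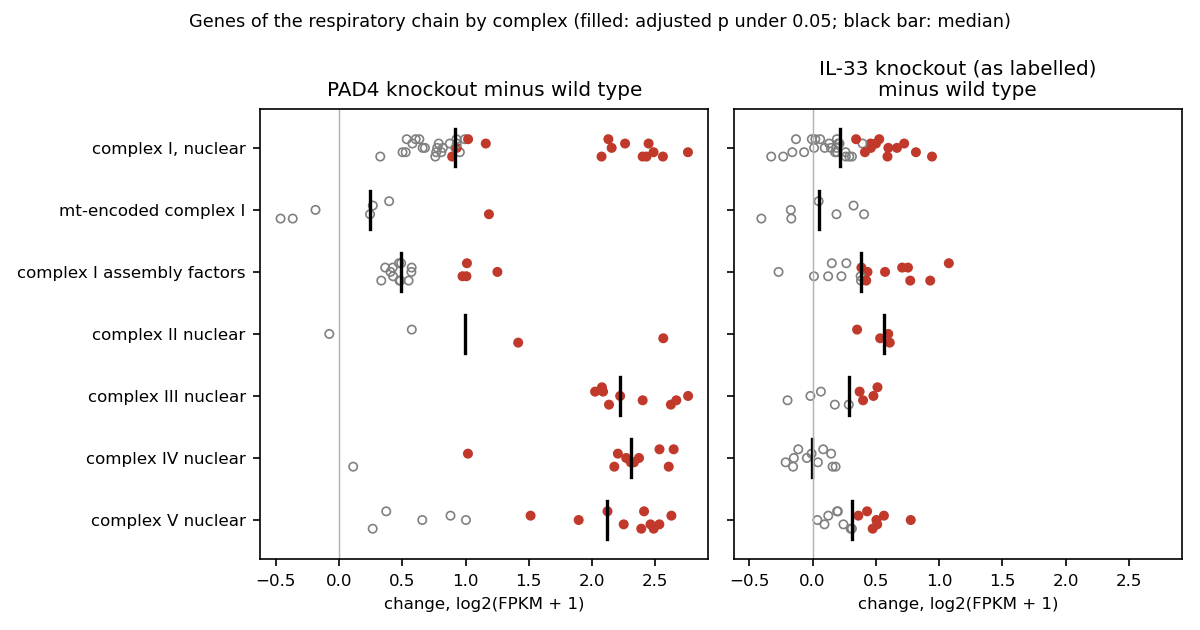
Change (log2(FPKM + 1), knockout minus wild type) of each respiratory chain gene by complex, for PAD4 knockout (left) and IL-33 knockout as labelled (right), with filled points for genes called and black bars for medians. On the left complexes III to V have medians above 2, and complex I spreads from 0.33 to 2.76 with a gap below 2; on the right all points lie between -0.405 and 1.08.

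Regulators of mitochondrial gene expression did not move as a group. In the PAD4 knockout 1 of 11 was called higher and 0 lower, against 8.89% and 8.79% of all genes tested, with a median change of 0.064. That gene was Ppargc1a, a coactivator that drives mitochondrial biogenesis, at 4.80, 2.08 and 2.83 FPKM in the knockout, against 0.964, 1.55 and 1.75 FPKM in wild type (change 0.77 ± 0.25 (SE), adjusted p = 0.0358 from limma). Genes of the mitochondrial ribosome were higher for 4 of 78 and lower for 0 (median change 0.45), and those of the cytosolic ribosome for 0 of 76 and lower for 0 (median change -0.013). The same shares of all genes stand beside these counts and those of arms, complexes, assembly factors and markers above. No list was tested against them.

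In kidneys labelled IL-33 knockout, 13 of the 37 genes were called higher than in wild type (35.1%) and 0 lower, where 22.2% of the 14513 genes tested were called higher and 16.8% lower. The median change was 0.21, against 0.044 over all genes tested, and 30 of 37 changes were above 0 (27 with median-of-ratios scaling). Every knockout library lay above every wild-type library for 16 members, against 30.2% of all genes tested, and below for 0, against 24.3%. The share of members called is thus closer to that of all genes than in the PAD4 set, and the changes are small. The 37 genes summed to 2358, 2499 and 2414 FPKM in the libraries labelled IL-33 knockout, against 2065, 2447 and 1857 FPKM in wild type, and these ranges overlap. Here the wild type varied more: the SD was a median of 4.27% of the mean in the knockout and 15.6% in wild type, where library 2 was the highest for 34 members.

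**Figure D4:**
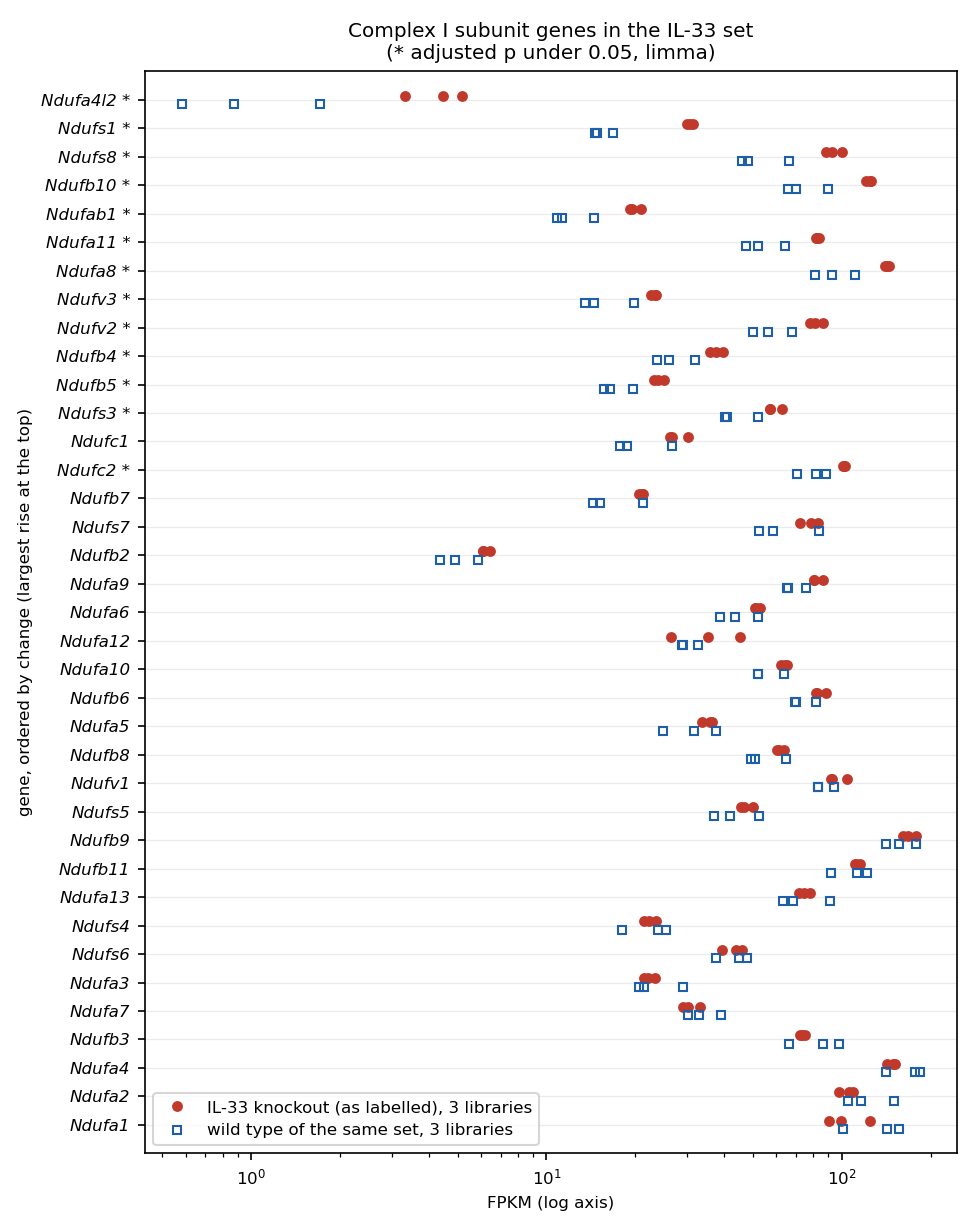
FPKM (log axis) of the 37 complex I subunit genes in the IL-33 set, as red circles for 3 libraries labelled IL-33 knockout and blue squares for 3 wild-type libraries, ordered by change with the largest rise at the top. The red circles of a gene lie close together, and for most genes below Ndufb7 they fall within the wild-type range or just above it.

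The largest change was that of Ndufa4l2, which is outside complex I: 3.31, 5.19 and 4.46 FPKM in the libraries labelled IL-33 knockout, against 0.582, 0.872 and 1.71 FPKM in wild type (1.39 ± 0.22 (SE), adjusted p = 0.00241 from limma). The groups were apart, and its mean in the knockout, 4.32 FPKM, was the lowest of the 37, next to Ndufb2 at 6.21 FPKM. Of the core genes, 4 of 6 were called higher. Ndufs1 of the N arm had 30.7, 31.4 and 29.8 FPKM in the knockout, against 14.6, 16.9 and 14.9 FPKM in wild type, a ratio of means of 1.98 (0.94 ± 0.09 (SE), adjusted p = 0.000278 from limma). Ndufs8 of the Q arm had 101, 92.4 and 88.7 FPKM in the knockout, against 46.0, 66.3 and 48.3 FPKM in wild type (0.82 ± 0.14 (SE), adjusted p = 0.00365 from limma). In both genes the lowest knockout library lay well above the highest wild-type one. Ndufv2 had 78.2, 81.2 and 86.8 FPKM in the knockout, against 56.1, 68.0 and 50.2 FPKM in wild type (0.50 ± 0.12 (SE), adjusted p = 0.0142 from limma), and Ndufs3 had 57.3, 62.7 and 57.3 FPKM in the knockout, against 40.9, 52.1 and 40.1 FPKM in wild type (0.41 ± 0.12 (SE), adjusted p = 0.0266 from limma). The call of Ndufs3 was lost in 5 of 6 fits that left out a library, with median-of-ratios scaling and with no filter, with adjusted p up to 0.123 from limma, and that of Ndufv2 without knockout library 3 (adjusted p = 0.0613 from limma) and with median-of-ratios scaling (adjusted p = 0.0810).

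The remaining core genes did not pass. Ndufv1 had 92.6, 104 and 91.9 FPKM in the libraries labelled IL-33 knockout, against 82.9, 94.3 and 83.5 FPKM in wild type (0.15 ± 0.09 (SE)). Ndufs7 had 72.2, 83.4 and 78.5 FPKM in the knockout, against 52.5, 83.5 and 58.5 FPKM in wild type (0.29 ± 0.17 (SE)). Both overlapped with wild type, whose library 2 reached the level of the knockout.

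By arm, the counts called higher were 3 of 10 in the N arm (median change 0.17), 2 of 5 in the Q arm (0.29), 3 of 9 in the proximal membrane arm (0.19) and 4 of 11 in the distal one (0.26). Over all genes tested 22.2% were called higher, and these small counts were not tested against that share. Ndufb10, a distal subunit with paired cysteine motifs, had 125, 121 and 126 FPKM in the libraries labelled IL-33 knockout, against 70.3, 89.8 and 65.6 FPKM in wild type (0.72 ± 0.12 (SE), adjusted p = 0.00311 from limma). Ndufab1 had 19.2, 20.9 and 19.6 FPKM in the knockout, against 11.3, 14.5 and 10.9 FPKM in wild type (0.67 ± 0.12 (SE), adjusted p = 0.00426 from limma). Ndufa11, of the proximal membrane arm, had 82.2, 82.1 and 83.6 FPKM in the knockout, against 47.5, 64.5 and 52.1 FPKM in wild type (0.60 ± 0.12 (SE), adjusted p = 0.00611 from limma). The knockout libraries of these 3 genes hardly differed from each other and were all above wild type. Ndufa8, Ndufv3, Ndufb4, Ndufb5 and Ndufc2 completed the 13, with changes between 0.34 and 0.59. Among fits that left out a library, the call of Ndufv3 was lost in 5, of Ndufc2 in 3, of Ndufb4 in 2 and of Ndufb5 in 1. At the other end, Ndufa1 had 90.8, 125 and 99.5 FPKM in the knockout, against 142, 156 and 101 FPKM in wild type (-0.33 ± 0.18 (SE)), Ndufa2 had 98.2, 109 and 106 FPKM in the knockout, against 117, 151 and 105 FPKM in wild type (-0.23 ± 0.14 (SE)), and Ndufa4 had 142, 152 and 149 FPKM in the knockout, against 177, 184 and 142 FPKM in wild type (-0.17 ± 0.11 (SE)). None of these 3 passed with all libraries in, and their groups overlapped.

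Leaving out a library moved the count between 8 (without knockout library 2) and 22 (without wild-type library 2), and 3 members (Ndufa1, Ndufa4 and Ndufb3) were called lower without wild-type library 3. Median-of-ratios scaling left 8 higher. Ndufa4l2, Ndufs1, Ndufs8, Ndufb10, Ndufab1, Ndufa11 and Ndufa8 stayed called whichever library was left out.

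Other transcripts of the chain were again mixed. All 4 genes of complex II were called higher (median change 0.57), Sdha with 161, 162 and 159 FPKM in the libraries labelled IL-33 knockout, against 105, 107.5 and 105 FPKM in wild type. Of complex III 4 of 9 were higher, of complex V 7 of 15, and of complex IV 0 of 11, with 0 lower in each and none of the 11 of complex IV at an unadjusted p under 0.05 in limma. Cox4i1, the large nuclear subunit of complex IV, had 308, 346 and 327.5 FPKM in the knockout, against 373, 402 and 319.8 FPKM in wild type. The 7 mitochondrially encoded genes of complex I gave 0 calls in limma (3 at an unadjusted p under 0.05), with a median change of 0.048.

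Assembly factors were called higher for 9 of 17 and lower for 0 (median change 0.39). Acad9, which doubles as an acyl-CoA dehydrogenase, had 9.32, 9.21 and 9.60 FPKM in the libraries labelled IL-33 knockout, against 4.03, 4.68 and 4.66 FPKM in wild type (change 0.93 ± 0.10 (SE), adjusted p = 0.00043 from limma). Ndufaf5, which modifies Ndufs7, had 8.49, 9.06 and 9.25 FPKM in the knockout, against 2.88, 4.58 and 3.82 FPKM in wild type (change 1.08). Among regulators 4 of 11 were higher and 1 lower: Ppargc1a stood at 11.8, 14.2 and 12.2 FPKM in the knockout, against 3.55, 5.25 and 5.24 FPKM in wild type (change 1.28 ± 0.15 (SE), adjusted p = 0.000625 from limma), and its relative Pprc1 was lower, with a change of -1.04. Mitochondrial ribosome genes were higher for 19 of 78 and lower for 6, and cytosolic ribosome genes higher for 0 of 76 and lower for 20. Beside these counts and those of the complexes above, 22.2% of all genes tested were called higher and 16.8% lower. The lists were not tested against these shares.

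In these libraries proximal tubule markers were called higher for 8 of 12 and lower for 1, Kap, with a median change of 1.80. Their sum, in which Kap weighs most, was 14165, 12863 and 11243 FPKM in the libraries labelled IL-33 knockout, against 16364, 18044 and 13303 FPKM in wild type. Thick ascending limb markers were higher for 4 of 5, macrophage markers for 5 of 6, with 1 lower, and erythroid markers for 5 of 5. Podocyte markers were higher for 2 of 4 and lower for 0. Brown fat markers were higher for 1 of 2 tested, and summed to 7.69 to 8.18 FPKM in the knockout and 2.81 to 10.3 FPKM in wild type. Colon markers were lower for 2 of 3 tested, and summed to 5.73 to 8.35 FPKM in the knockout and 97.7 to 369 FPKM in wild type. Their part in the complex I values was not tested.

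The comparisons share no control libraries. Of the 37 genes, 5 were called higher in both: Ndufs8, Ndufa8, Ndufv2, Ndufc2 and Ndufab1. These are 33.3% of the 15 calls in the PAD4 set and 38.5% of the 13 in the IL-33 set. Whether this overlap exceeds what the call counts alone would give, or that of all genes, was not tested, so it is a count only. A further 10 were called in the PAD4 set alone, 8 in the IL-33 set alone and 14 in neither. Over the 37 genes the changes had Pearson's r = -0.22 and Spearman's rho = -0.03, given as a description, since genes within a library are not independent.

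The difference between the changes (IL-33 set minus PAD4 set) was tested in a fit of all 12 libraries, with the 13010 genes that passed the filter in each table. It was called lower for 11 members, against 6.23% of all genes, and higher for 1, against 6.18%. The 11 were the genes with the largest changes in the PAD4 set, with differences between -2.76 (Ndufa1) and -1.76 (Ndufv2), and the 1 was Ndufa4l2 (1.41 ± 0.36 (SE), adjusted p = 0.0178 from limma). Since the PAD4 change enters the difference, the match of the 11 with the largest PAD4 changes is no separate result. For Ndufs1, with a change of 0.94 in the IL-33 set and 0.33 in the PAD4 set, the difference of 0.62 ± 0.27 (SE) did not pass (adjusted p = 0.147 from limma). Since sets and batches coincide, a difference between knockouts and one between batches cannot be told apart.

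**Figure D5:**
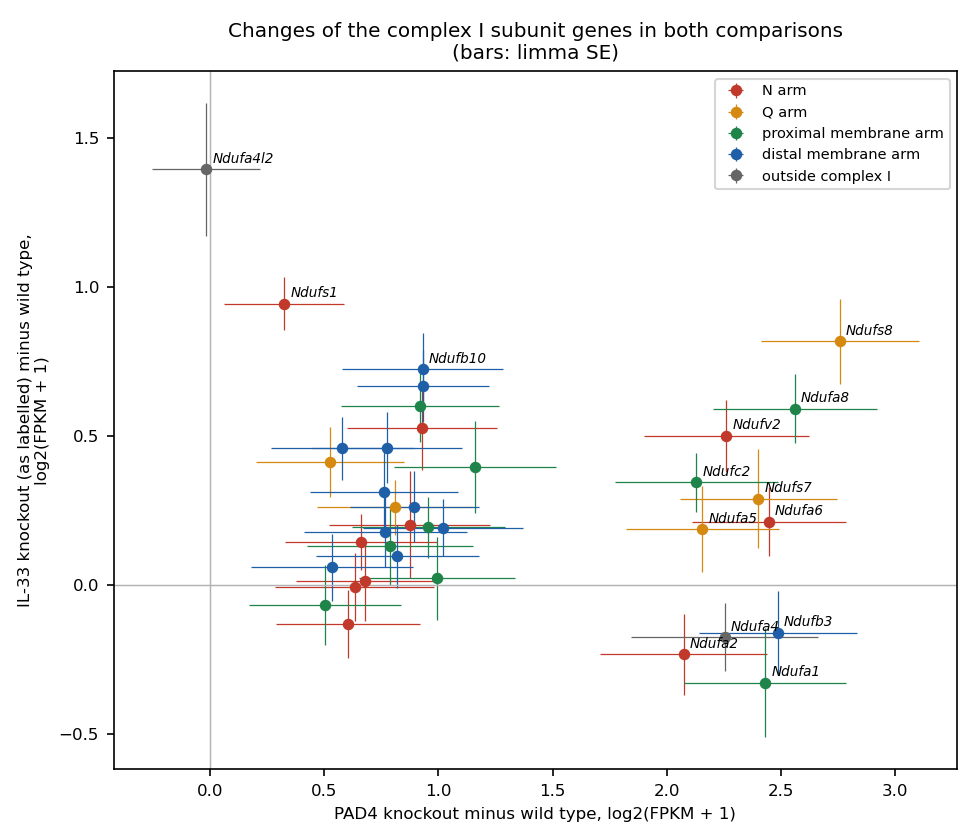
Change (log2(FPKM + 1)) of each of the 37 genes in the PAD4 knockout (x axis) and in the IL-33 knockout as labelled (y axis), with limma's SE as bars and colours for the arm of the enzyme. A separate cloud of 11 genes of all arms lies at 2.07 and above on the x axis, while on the y axis the same genes range from -0.33 to 0.82.

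Near-identical copies limit some of these values, since neither labels nor headers say how reads with several matches were counted. For 7 members another locus matches at least 50% of the coding sequence at 95% identity or more: Ndufa12, Ndufab1, Ndufb3, Ndufb4, Ndufb11, Ndufs3 and Ndufs5. Ndufb4c, a processed copy of Ndufb4, was listed at 57.2, 24.2 and 30.5 FPKM in PAD4 knockout libraries, against 14.8, 17.9 and 21.5 FPKM in wild type, a level like that of Ndufb4 itself (47.8, 22.7 and 27.6 FPKM in the knockout, against 14.9, 17.1 and 21.9 FPKM in wild type). Gm15920, a copy of Ndufa12, was listed above it in wild type, at 20.4, 31.7 and 10.1 FPKM in the PAD4 knockout, against 25.1, 18.5 and 36.2 FPKM in wild type, with no change that passed. For Ndufab1 both copies, Gm4459 and Ndufab1-ps, were called higher in each comparison, as was Ndufab1. Levels of these members are therefore uncertain, whereas the copies of Ndufb3 and Ndufb11 were under 0.4 FPKM in every library that lists them.

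The 11 genes with the largest changes in the PAD4 set also differed from the other 26 in what the annotation lists at their loci. An exon of another gene overlapped 1 of the 11 and 15 of the 26, and non-coding transcripts of the gene itself were annotated for 4 of the 11 and 22 of the 26. The median coding length was 363 bases for the 11 and 453 bases for the 26. The split followed the measured change, so these counts are a description with no test.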

How the data were processed

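RNA of 12 mouse kidneys was measured by poly(A)-selected, strand-specific RNA-seq, per the labels' protocols. The authors deposited FPKM values, 1 table per set and 1 column per library, and 0 columns belonged to no sample. In the IL-33 table, the headers of the wild-type libraries name no genotype, and they were matched to wild type because no other group of that set lacks a knockout in its name. Tools named in the submitters' processing notes are HISAT2 and StringTie, FastQC and cutadapt, and edgeR and DESeq2, without versions or roles. Genome build, annotation release and the counting of strand and of reads with several matches were not given in the sources used here. The tables hold Ensembl gene numbers, and GENCODE M21 gave symbols to 30212 of 32199 rows and 29690 of 31719 rows, with gene types and gene models. Promoters and their coordinates are RefSeq's (GRCm38.p6) and no coordinate comes from the tables. FPKM carries no depth, so the depth per library is unknown and no interval that needs it is given.

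Within each table, log2(FPKM + 1) of genes averaging 0.5 FPKM or more over its 6 libraries was fitted with limma 3.58.1 in R 4.3.3 (lmFit, eBayes with trend), 2-sided, with p values adjusted after Benjamini and Hochberg over every gene tested and a threshold of 0.05. This scale understates changes of low genes. The difference between the changes was a contrast of the 4 group means over 12 libraries. The rule met 38 genes, of which 1 is not reported here, and the 37 described passed the filter in both tables. Mean values are given ± SD over 3 libraries. The series' text calls the replicates biological. Copies were sought with BLAST 2.17.0.

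The members, lists and tests were chosen with earlier results of these data known. Values per library are given for 6 nuclear core genes, the 3 largest and 3 smallest changes of each comparison, up to 6 members whose call differs from that of most, and Ndufa4 with Ndufa4l2, and of each other list for the genes with the smallest adjusted p. Alternatives were each library left out, a block for the replicate number, array weights, no trend, 4 other scalings, filters at 0 and at 2 FPKM, and pseudocounts of 0.1 and 0.5. Absence of both filter and trend was added after seeing the data.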

Additional observations from a re-analysis of the deposited data

Results flagged for a closer look

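For 12 of the 37 genes the change in the IL-33 set differed from that in the PAD4 set by a test of the difference itself (limma over 12 libraries, adjusted p under 0.05). Of these, 11 were lower in the IL-33 set than in the PAD4 set. In the N arm the differences were -2.31 for Ndufa2, -2.23 for Ndufa6 and -1.76 for Ndufv2. In the Q arm they were -2.11 for Ndufs7, -1.97 for Ndufa5 and -1.94 for Ndufs8. In the membrane arm they were -2.76 for Ndufa1, -2.65 for Ndufb3, -1.97 for Ndufa8 and -1.78 for Ndufc2. Outside complex I the difference was -2.43 for Ndufa4, and Ndufa4l2 went the other way, with 1.41. Of these 12, Ndufs8, Ndufa8, Ndufv2 and Ndufc2 were called higher in both comparisons, so for them the difference is in size and not in direction. Ndufa5, Ndufa6 and Ndufs7 also had changes above 0 in both sets, called in the PAD4 set alone. Ndufa1, Ndufa2, Ndufa4 and Ndufb3 had changes below 0 in the IL-33 set that were not called with all libraries in. The sets are also the labels' batches, and the contrast cannot tell both apart.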

How the results depend on the processing

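Of the 37 changes in each comparison, 0 changed sign where they were called, under any alternative run. The 15 genes called higher in the PAD4 set became 0 with no filter on level, 0 with neither filter nor trend (chosen after seeing the data; 18 at an unadjusted p under 0.05, 11 of 32199 genes called) and 29 with array weights. Leaving out a library gave 10 to 30, with 10 without wild-type library 1 and 30 without PAD4 knockout library 2. Of the 15, 10 stayed called whichever library was left out. Without wild-type library 1, Ndufa4 was lost (adjusted p = 0.0503 from limma), and Ndufab1, Ndufb2, Ndufb6 and Ndufc1 were each lost under several omissions. In the IL-33 set the 13 became 8 with median-of-ratios scaling and 8 to 22 with a library left out, and the count of lower genes, 0, became 0 to 3. The 12 differences between the sets became 12 to 19 with a library left out, with 19 without PAD4 knockout library 2, and all 12 stayed called in each omission. Ndufa4l2 was lost there with no filter. Over all genes, calls in the PAD4 set were 2473, against 3433 with median-of-ratios scaling, 3702 with quantile normalization and 5206 with array weights, and in the IL-33 set the share of calls that are higher was 56.9%, against 49.7% with median-of-ratios scaling. For the difference that share was 49.8%, against 39.6% with median-of-ratios scaling and 62.5% with no filter. With the replicate number as a block the counts were 11, 13 and 12. Libraries of the same number did not deviate together (correlations of -0.146 to 0.134). Whether the numbers pair animals is not stated, and such correlations over 3 libraries a group cannot decide it. The cause of these shifts was not tested. Depth is unknown, and 3 libraries a group limit the precision.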

Other observations

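Rows left out by the naming rule carried signal too. Ndufb1-ps, which the annotation lists as a non-coding gene, stood at 20.4, 9.37 and 12.2 FPKM in PAD4 knockout libraries, against 7.20, 7.93 and 10.1 FPKM in wild type (change 0.62 ± 0.30 (SE), adjusted p = 0.174 from limma). In the IL-33 set it stood at 10.1, 11.6 and 11.3 FPKM in the libraries labelled IL-33 knockout, against 13.1, 14.2 and 11.5 FPKM in wild type. Ndufs6b, listed as a processed pseudogene, stood at 4.96, 2.05 and 1.72 FPKM in PAD4 knockout libraries, against 0.591, 0.839 and 1.17 FPKM in wild type, and was called higher (change 0.99 ± 0.26 (SE), adjusted p = 0.0122 from limma), while Ndufs6 itself had a change of 0.63 that did not pass. Il33 transcript, the target of the other set, was also lower in PAD4 knockout libraries, at 0.889, 1.58 and 1.28 FPKM, against 3.57, 5.29 and 3.28 FPKM in wild type (change -1.15 ± 0.23 (SE), adjusted p = 0.00208 from limma). Colon, lung, smooth muscle and erythroid markers were lower in the same comparison, and a link of any of them to Il33 was not tested.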
